A study of Mus musculus and Homo sapiens
Mus musculus with 14 samples.

Results

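Transcripts of 10 circadian clock genes were followed through the layers and the amacrine cells of the mouse retina. The set comprised Clock, Arntl, Per1, Per2, Per3, Cry1, Cry2, Nr1d1, Nr1d2 and Dbp, taken by gene symbol and not by their measured values. All 10 were found among the 24460 genes listed for the layers and among the 18415 listed for the amacrine cells. Light-Seq copies RNA into cDNA inside a fixed tissue section and attaches a DNA barcode to the cDNA of a chosen area with light, so that a read can be assigned to the area it came from. A unique molecular identifier (UMI) lets PCR copies of one molecule be counted once. In 4 retinal sections the outer nuclear layer (ONL, rods and cones), the bipolar cell layer (BCL, bipolar and horizontal cells and Müller glia) and the layer of ganglion cells with displaced amacrine cells (GCL) each received a barcode. In 5 other sections, amacrine cells stained for tyrosine hydroxylase (TH+, the dopaminergic amacrine cells) and unstained amacrine cells (TH-) were barcoded separately. All tissue came from untreated wild-type CD1 IGS mice in the third postnatal week, with no transgene, allele or agent that differed between groups. The layer sections were cut from a single animal, so that the spread between them is technical. The study's methods speak of a single source animal for Light-Seq and do not name the animals of the amacrine sections separately, so that their spread may be technical too. Each TH+ library pools the few stained cell bodies of a section, whereas each TH- library pools many cells. The hour of collection is not given in the sources used here and no series of times was sampled, so the values are levels at one moment and carry no amplitude or phase.

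The mammalian clock is a transcriptional feedback loop that runs in nearly every cell. The proteins CLOCK and BMAL1 (encoded by Arntl) bind E-box sequences together and activate the Period genes (Per1, Per2, Per3), the Cryptochrome genes (Cry1, Cry2), the nuclear receptor genes Nr1d1 and Nr1d2 (REV-ERB alpha and beta) and Dbp. PER and CRY proteins return to the nucleus and repress CLOCK and BMAL1, the REV-ERB proteins repress Arntl, and DBP carries the rhythm to genes with D-box sequences. The retina holds a clock of its own, known for daily rhythms in dopamine and melatonin release, in the shedding of photoreceptor outer segments and in the light response.

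In the GRCm39 assembly (GENCODE vM39, matched by Ensembl identifier) the activator genes lie at chr5:76342860-76452846 (Clock, minus strand) and chr7:112806152-112914735 (Arntl, plus strand, named Bmal1 there). The Period genes lie at chr11:68986035-69002300 (plus), chr1:91343700-91387069 (minus) and chr4:151081373-151129140 (minus), and the Cryptochrome genes at chr10:84967560-85021252 and chr2:92233894-92264474 (both minus). Nr1d1 lies at chr11:98658752-98666188 (minus), Nr1d2 at chr14:4230545-4266624 (plus) and Dbp at chr7:45354512-45359627 (plus). The counts cover whole genes, exons with their UTRs, and do not separate transcripts of one gene.

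The windows around the annotated starts of these genes, from 250 bases before to 50 after, were searched on both strands for the letters through which the loop is known to run. RefSeq promoters (table on GRCm38.p6) matched 9 of the 10 genes with 13 starts, and Per2 had no entry. The E-box CACGTG was found in Per1 and Cry1 and is held by 7.15% of all 32851 mouse promoters of that length. Its variant CACGTT was found in Cry1, Cry2 and Nr1d1 and in 4.68% of all promoters. The D-box, searched as TTATGTAA or TTACGTAA, was found at 2 places in Per3 and in 1.06% of all promoters. The nuclear receptor half-site AGGTCA was found in Clock, Arntl, Per1 and Nr1d2 and in 16.3% of all promoters, and the cyclic AMP response element TGACGTCA in none of the 9 genes and in 1.79% of all promoters. None of these motifs contains another. The stretches with the D-boxes of Per3, the E-box of Per1 and the E-box pair of Cry1 are shown as the places where these genes hold CACGTG or the D-box. Clock and Arntl held no CACGTG, and no gene but Per3 among the 9 held the D-box. Whether a motif goes with a layer was not tested. Matched letters are in capitals, and the gene's own strand is written 5′ to 3′. The Per3 stretch (chr4:151129262-151129337, GRCm39, minus strand) lies upstream of the gene and within an exon of the lncRNA gene Gm69444 of the opposite strand. The Per1 stretch (chr11:68989597-68989626, plus strand) and the Cry1 stretch (chr10:85020970-85020999, minus strand) lie before a RefSeq start and within an exon of a longer transcript of the same gene, and the Per1 stretch also overlaps an exon of Gm72400 on the opposite strand. In Cry1 the first capitals are the CACGTT variant read from the other strand (AACGTG) and the second are CACGTG. A match describes the letters only and was not tested for binding.
Per3: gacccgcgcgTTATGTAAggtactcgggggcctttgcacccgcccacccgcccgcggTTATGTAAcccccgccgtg
Per1: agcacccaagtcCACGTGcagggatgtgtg
Cry1: gaAACGTGaggtgccggtggtCACGTGggg

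Total UMIs ran from 310228 to 801105 in the ONL, against 193869 to 208437 in the BCL, 585655 to 785013 in the GCL, 30317 to 87449 in TH+ and 134394 to 200344 in TH- libraries. The markers of each layer stood where the labels put them. The 10 rod markers made up 6.03% to 7.43% of the UMIs in the ONL against at most 2.16% in the other layers. In the BCL the 8 bipolar markers made up 0.609% to 0.688%, against at most 0.0764% in the other layers, and the 8 ganglion cell markers 0.667% to 0.749% in the GCL against at most 0.0714% in the other layers. The 7 Müller glia markers made up 0.688% to 0.772% in the BCL, 0.0649% to 0.119% in the ONL and 0.148% to 0.175% in the GCL. The 4 endothelial markers made up 0.0803% to 0.0918% in the BCL and at most 0.0165% in the other layers, and the 4 horizontal cell markers 0.0262% to 0.0427% and at most 0.0144%. Mitochondrially encoded genes took 4.26% to 5.50% of UMIs in the ONL, against 5.71% to 6.79% in the BCL and 8.59% to 9.36% in the GCL. The 5 dopaminergic markers made up 0.210% to 0.435% in TH+ and 0.0131% to 0.0265% in TH- libraries, where Slc6a3 and Ddc were at 0. Rod markers reached 1.44% to 3.70% in TH+ and 0.827% to 2.17% in TH- libraries. In tissue of mixed cells, fewer cells of a type and less RNA per cell cannot be told apart.

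Clock gene transcripts made up a larger share of the UMIs in the BCL than in the other layers. Summed over the 10 genes, they reached 1984 ± 165 CPM (UMIs of a gene per 1000000 UMIs of its library, mean ± SD, n = 4) in the BCL, 1100.1 ± 79.6 in the ONL and 1103 ± 118 in the GCL. The BCL libraries, at 1779.8 to 2166, did not overlap with the others, which lay between 969.9 and 1249.5. The sums rest on 360 to 428 UMIs per BCL library, 374 to 892 per ONL library and 568 to 832 per GCL library. Nr1d1 was the largest part of each, at means of 657 CPM in the BCL, 283 in the ONL and 321 in the GCL. Gene by gene, 8 of the 10 had their highest mean CPM in the BCL, and Arntl and Per1 in the ONL. Of the 8, Clock (190 CPM in the BCL against 186 in the ONL) and Cry1 (72.8 against 71.4) were nearly level. With CPM scaled by TMM, which sets the bulk of genes level between libraries, 6 of the 10 had their highest mean in the BCL, since Clock and Cry1 then moved to the ONL. The share of all genes highest in the BCL was not counted. Scaled by library size alone, the median log2 fold change of all genes was -0.25 for ONL against BCL and 0.15 for BCL against GCL.

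**Figure D1:**
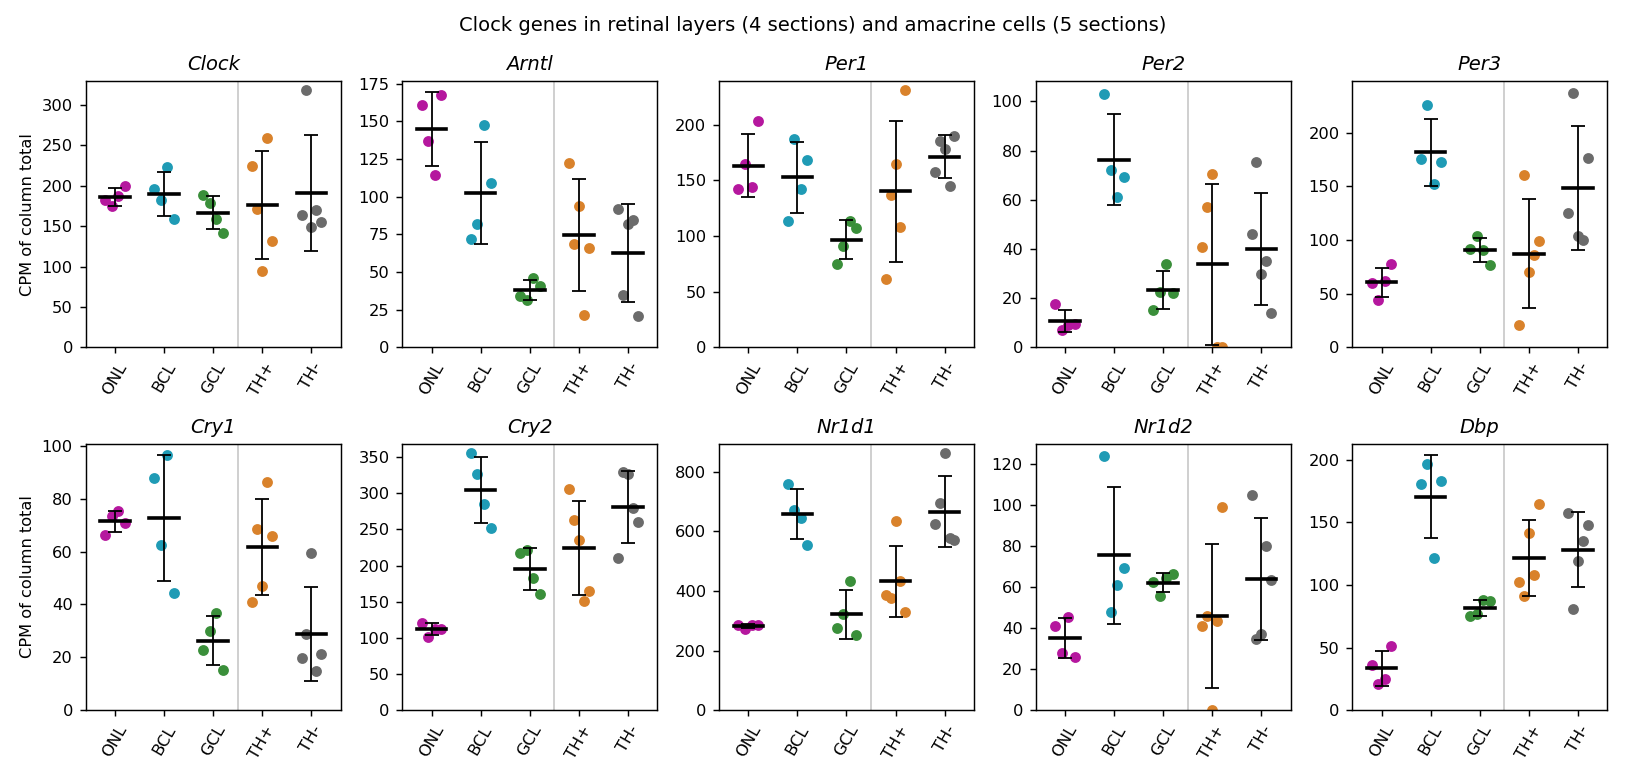
CPM of each clock gene in every library of the 3 retinal layers (4 sections each) and of TH+ and TH- amacrine cells (5 sections each), with the mean and SD as bars. Each panel has its own axis, which starts at 0, and the grey line parts the separately sequenced sets. Arntl falls from ONL to GCL, Per2, Per3, Cry2, Nr1d1 and Dbp are highest in the BCL among the layers, and Clock lies between 142 and 224 in all 12 layer libraries.

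Differences between layers were tested with edgeR's quasi-likelihood test and Benjamini-Hochberg adjustment over all 11324 genes tested, at an adjusted p of 0.05. All 10 clock genes passed the filter on low counts. Between the ONL and the BCL, 7 of the 10 passed the test, where 36.7% of all genes did. Arntl was the 1 gene higher in the ONL (18.5% of all genes), and Per2, Per3, Cry2, Nr1d1, Nr1d2 and Dbp were the 6 higher in the BCL (18.2% of all genes). Between the ONL and the GCL, 9 of the 10 passed, where 61.5% of all genes did. Clock, Arntl, Per1 and Cry1 were higher in the ONL (4 genes, 29.3% of all genes) and Per2, Per3, Cry2, Nr1d2 and Dbp in the GCL (5 genes, 32.2% of all genes). Between the BCL and the GCL, 8 of the 10 passed, where 36.5% of all genes did, and all 8 were higher in the BCL, as were 16.1% of all genes, while 0 were higher in the GCL, as were 20.4% of all genes. The CPM of the compared layers did not overlap for 6 clock genes between ONL and BCL (33.2% of all genes), 6 between ONL and GCL (54.8%) and 7 between BCL and GCL (36.1%). The median log2 fold change of the 10 genes was -0.81 for ONL against BCL, -0.25 for ONL against GCL and 0.85 for BCL against GCL, beside medians over all genes tested of 0.09, 0.00 and -0.02. Scaled by library size alone, the median of all genes moved to -0.25, -0.16 and 0.15. The share of calls higher in the ONL than in the BCL fell from 50.5% to 29.3% (40.3% with DESeq2), and that of calls higher in the BCL than in the GCL rose from 44.1% to 55.7%. The clock genes passed with the splits of 1 against 6 and 8 against 0 under each of these scalings, except that the second was 7 against 0 with DESeq2. The 3 comparisons share libraries and are not independent of each other.

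**Figure D2:**
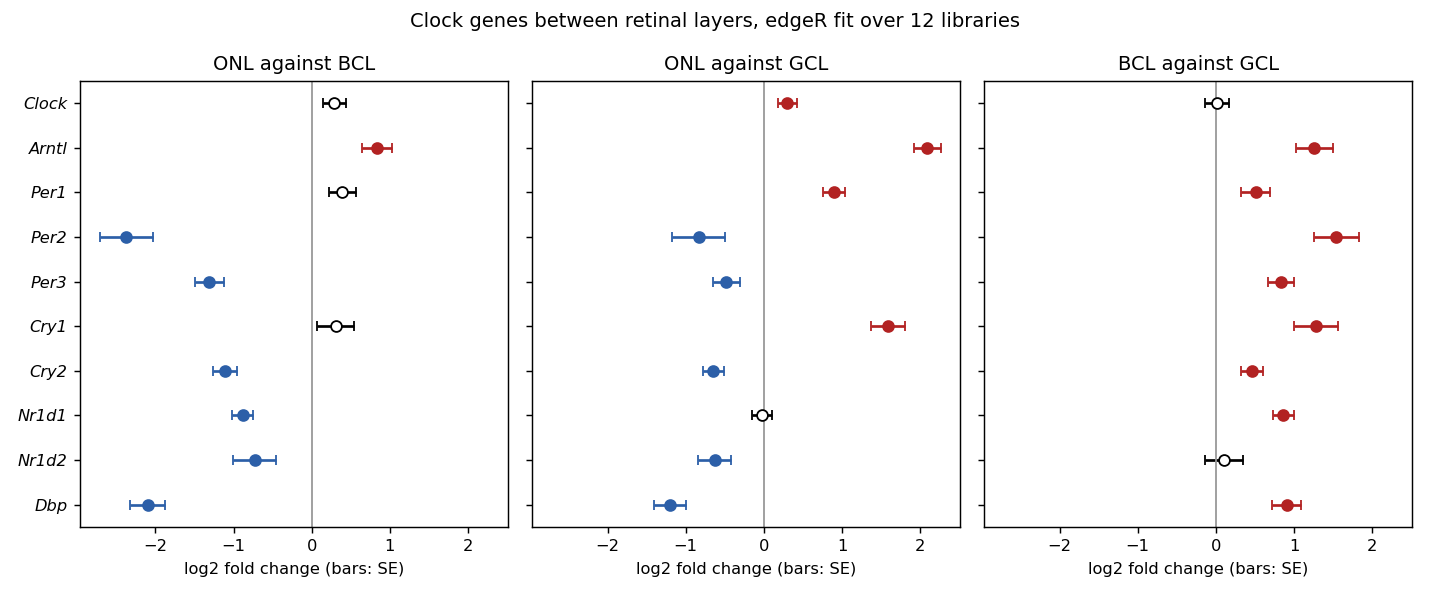
Log2 fold change of each clock gene in the 3 comparisons of layers, with its SE as a bar, from 1 edgeR fit over 12 libraries. Filled points passed the adjusted p of 0.05 (red, higher in the layer named first, blue, lower) and open points did not. In the BCL against GCL panel all 8 filled points lie to the right of 0.

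Of the activator genes, Clock was nearly level and Arntl graded, although the difference between the genes was not tested. Clock, which encodes the DNA-binding partner of BMAL1, lay at 174 to 199.9 CPM in the ONL, against 158 to 224 in the BCL and 142 to 189 in the GCL, ranges that overlapped. Its log2 fold change was 0.29 ± 0.15 (SE) for ONL against BCL (edgeR adjusted p = 0.134, 95% interval -0.01 to 0.59, and -0.051 when scaled by library size alone). It was 0.01 ± 0.15 for BCL against GCL (edgeR adjusted p = 0.968, 95% interval -0.28 to 0.31, and 0.18 when scaled by library size alone). By CPM the BCL was higher than the GCL in 4 of 4 sections. Clock passed for ONL against GCL, at 0.30 ± 0.12 (edgeR adjusted p = 0.0303), but only 2 of 4 sections were higher in the ONL by CPM. The call was lost under several alternatives, with adjusted p values of 0.0641 to 0.367, among them 0.104 without section 3 and 0.171 without section 4. Arntl, by contrast, lay at 161, 137, 114 and 168 CPM in ONL sections 1 to 4, at 72.2, 81.6, 147 and 109 in the BCL and at 34.4, 31.5, 46.1 and 41.0 in the GCL. The ONL and GCL values stood apart, as did those of the BCL and GCL, while ONL and BCL overlapped because section 3 was the lowest of the ONL and the highest of the BCL. Arntl was 4.26-fold higher in the ONL than in the GCL (log2 fold change 2.09 ± 0.17, edgeR adjusted p = 1.61e-15) and 1.78-fold higher in the ONL than in the BCL (0.83 ± 0.19, edgeR adjusted p = 0.000356). Scaled by library size alone, the log2 value of ONL against BCL was 0.49 (edgeR adjusted p = 0.0414). In the BCL Arntl was 2.39-fold higher than in the GCL (1.26 ± 0.24, edgeR adjusted p = 1.99e-05).

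The Period genes, which encode the PER repressors, did not share one order. Per1 lay at 142, 165, 144 and 203 CPM in ONL sections 1 to 4, at 113, 187, 142 and 168 in the BCL and at 75.2, 91.4, 114 and 108 in the GCL. It was higher in the ONL than in the GCL without overlap (log2 fold change 0.90 ± 0.15, edgeR adjusted p = 4.00e-07). It was also higher in the BCL than in the GCL, in 4 of 4 sections (0.51 ± 0.18, edgeR adjusted p = 0.0244), a call that ended without section 2 (adjusted p = 0.221), without section 4 (0.0874), with no low-count filter (0.147) and with DESeq2 (0.0532). Between ONL and BCL the value for Per1 was 0.39 ± 0.17 (edgeR adjusted p = 0.0714). With the section as a block it was 0.42 with an adjusted p of 0.0362, in a fit that called 36.6% of all genes. Scaled by library size alone it was 0.049 (adjusted p = 0.868), and with DESeq2 0.31 (adjusted p = 0.310). Per2 ran the other way, with 17.5, 6.92, 9.13 and 9.67 CPM in the ONL (14, 5, 4 and 3 UMIs) and 103, 72.0, 61.0 and 69.2 in the BCL (20, 15, 12 and 14 UMIs). It had 15.3, 22.5, 33.8 and 22.2 CPM in the GCL (12, 15, 22 and 13 UMIs). Every BCL library stood above every other layer library. Per2 was 5.19-fold higher in the BCL than in the ONL (log2 fold change of ONL against BCL -2.38 ± 0.34, edgeR adjusted p = 5.55e-08). Against the GCL it was 2.91-fold higher (1.54 ± 0.29, edgeR adjusted p = 1.57e-05). The lower level in the ONL than in the GCL (-0.84 ± 0.34, edgeR adjusted p = 0.032) rested on individual sections. Its adjusted p was 0.170 without section 2, 0.259 without section 3 and 0.0714 without section 4, while without section 1 the log2 value was -1.50 with an adjusted p of 0.0018.

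Per3, the third of the family, lay at 59.9, 44.3, 61.6 and 77.4 CPM in the ONL, against 175, 225, 152 and 173 in the BCL and 91.7, 103, 90.7 and 76.8 in the GCL. The BCL values again stood clear of both other layers, while the ONL and GCL touched through ONL section 4. Per3 was 2.48-fold higher in the BCL than in the ONL (log2 fold change of ONL against BCL -1.31 ± 0.19, edgeR adjusted p = 5.78e-08), and 1.78-fold higher than in the GCL (0.83 ± 0.17, edgeR adjusted p = 6.09e-05). ONL against GCL gave -0.48 ± 0.17 (edgeR adjusted p = 0.0122), and -0.29 with an adjusted p of 0.203 without section 2. ONL against BCL was thus negative for Per2 and Per3, while Per1 did not pass and its positive value fell to 0.049 when scaled by library size alone. The difference between the genes was not tested.

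The Cryptochrome genes, whose proteins repress CLOCK and BMAL1 together with PER, also differed from each other in their order across the layers, although the difference between the genes was not tested. Cry1 lay at 66.2, 73.3, 75.3 and 70.9 CPM in ONL sections 1 to 4, at 87.7, 62.4, 96.5 and 44.5 in the BCL and at 22.9, 30.0, 36.9 and 15.4 in the GCL. Both outer layers stood above every GCL library, and the narrow ONL range lay inside the wide range of the BCL. Cry1 was 3.00-fold higher in the ONL than in the GCL (log2 fold change 1.59 ± 0.22, edgeR adjusted p = 8.67e-09). It was 2.43-fold higher in the BCL than there (1.28 ± 0.28, edgeR adjusted p = 0.000168). ONL against BCL gave 0.31 ± 0.24 (edgeR adjusted p = 0.343, 95% interval -0.16 to 0.77, and -0.035 when scaled by library size alone). Cry2 was lowest in the ONL, with 121, 101, 112 and 113 CPM, against 356, 326, 285 and 252 in the BCL and 218, 222, 183 and 161 in the GCL. No Cry2 value of one layer overlapped those of another. Its log2 fold change was -1.11 ± 0.15 for ONL against BCL (edgeR adjusted p = 2.21e-08) and -0.65 ± 0.13 for ONL against GCL (edgeR adjusted p = 3.80e-05). BCL against GCL gave 0.46 ± 0.14 (edgeR adjusted p = 0.00579), with an adjusted p of 0.0860 when no low-count filter was used.

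Nr1d1, which encodes REV-ERB alpha and had the highest CPM of the 10 genes in every group, lay at 286, 273, 285 and 287 CPM in the ONL, against 758, 672, 645 and 554 in the BCL and 276, 322, 435 and 251 in the GCL. The BCL stood above both other layers in every section and without overlap. The log2 fold change was -0.89 ± 0.13 for ONL against BCL (edgeR adjusted p = 2.32e-07) and 0.86 ± 0.13 for BCL against GCL (edgeR adjusted p = 2.23e-07). ONL against GCL gave -0.02 ± 0.13 (edgeR adjusted p = 0.892, 95% interval -0.27 to 0.23). Nr1d1 shares 1694 of its 3242 exonic bases (52.3%) with exons of Thra, a thyroid hormone receptor gene on the opposite strand. The study's notes state default settings for the counting. By default featureCounts ignores strand and leaves a read that touches exons of both genes unassigned, so that the count of Nr1d1 would rest on the exonic bases it does not share. Thra followed another order, with mean CPM of 75.0 in the ONL, against 187 in the BCL and 372 in the GCL. Its log2 fold changes of -1.01, -2.16 and -1.16 for ONL against BCL, ONL against GCL and BCL against GCL all passed. Smaller overlaps with opposite-strand genes concern Clock with Tmem165 (2047 of 17251 exonic bases, 11.9%) and Dbp with Sphk2 (539 of 3470, 15.5%), and neither Tmem165 nor Sphk2 passed in any comparison of layers.

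Nr1d2, which encodes REV-ERB beta, was lowest in the ONL, with 25.8 to 45.7 CPM, against 124, 48.0, 61.0 and 69.2 in BCL sections 1 to 4 and 55.5 to 66.6 in the GCL. BCL section 1 was far above the other BCL sections, and the GCL range lay inside that of the BCL. The log2 fold change was -0.73 ± 0.27 for ONL against BCL (edgeR adjusted p = 0.0278) and -0.63 ± 0.22 for ONL against GCL (edgeR adjusted p = 0.0097). The first ended without section 1 (-0.52, adjusted p = 0.233) without section 4 (-0.66, adjusted p = 0.1002) and with no low-count filter (adjusted p = 0.0516), and the second without section 4 (-0.52, adjusted p = 0.0601). BCL against GCL gave 0.10 ± 0.24 (edgeR adjusted p = 0.785, 95% interval -0.37 to 0.57).

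Dbp, the output factor that binds D-boxes, showed the smallest adjusted p of the 10 genes between ONL and BCL. It lay at 36.2, 20.8, 25.1 and 51.6 CPM in the ONL, against 181, 197, 122 and 183 in the BCL and 75.2, 76.4, 87.6 and 87.1 in the GCL. The values of the 3 layers did not overlap, and the BCL was highest and the ONL lowest in all 4 sections. Dbp was 4.29-fold higher in the BCL than in the ONL (log2 fold change of ONL against BCL -2.10 ± 0.22, edgeR adjusted p = 1.35e-11). It was 2.29-fold higher in the GCL than in the ONL (-1.20 ± 0.21, edgeR adjusted p = 1.35e-06) and 1.87-fold higher in the BCL than in the GCL (0.90 ± 0.18, edgeR adjusted p = 5.18e-05). The genes highest in the BCL moved together with the bipolar, Müller glia, horizontal cell and endothelial marker shares given above, and the part of each cell type in the levels was not tested. The BCL libraries were also shallower than the other layers, at 193869 to 208437 UMIs.

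Relatives and partners of these genes were described from a list of 25 further clock genes. Of these 22 passed the filter in the layers, and Arntl2, Timeless and Aanat did not, with at most 4 UMIs in any layer library. Between ONL and BCL 12 of the 22 passed the test (8 higher in the ONL, against 4 in the BCL), where 36.7% of all genes did, and between ONL and GCL 19 (10 and 9), where 61.5% did. Between BCL and GCL 9 passed (5 higher in the BCL, 4 in the GCL), beside 36.5% of all genes. The median log2 fold changes of these 22 were -0.03, 0.17 and 0.09. Rora and Rorb, receptors that activate Arntl through the sites that REV-ERB proteins repress, followed the order of Arntl. Rora had mean CPM of 851 ± 38.3 (SD, n = 4) in the ONL, against 563 ± 56.2 in the BCL and 356 ± 41.8 in the GCL. Those of Rorb were 1119 ± 72.3, 852 ± 67.1 and 341 ± 36.6. All 6 of their log2 fold changes passed, at 0.92, 1.41 and 0.49 for Rora and 0.71, 1.87 and 1.15 for Rorb in ONL against BCL, ONL against GCL and BCL against GCL. Tef and Hlf, the PAR bZIP relatives of Dbp, were like Dbp lowest in the ONL. Tef lay at 115 ± 26.7 CPM in the ONL, against 392 ± 66.7 in the BCL and 215 ± 18.3 in the GCL, and Hlf at 139 ± 28.6, 648 ± 65.9 and 552 ± 22.7. Tef passed in all comparisons (-1.49, -0.79 and 0.70), and Hlf passed in both with the ONL (-1.90 and -1.84) but not for BCL against GCL (0.06, edgeR adjusted p = 0.72). Nfil3, which competes with these factors for D-boxes, was higher in the ONL than in the GCL (0.96), a call lost without section 2 (adjusted p = 0.0952), without section 4 (0.0502) and with DESeq2 (0.0735).

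**Figure D3:**
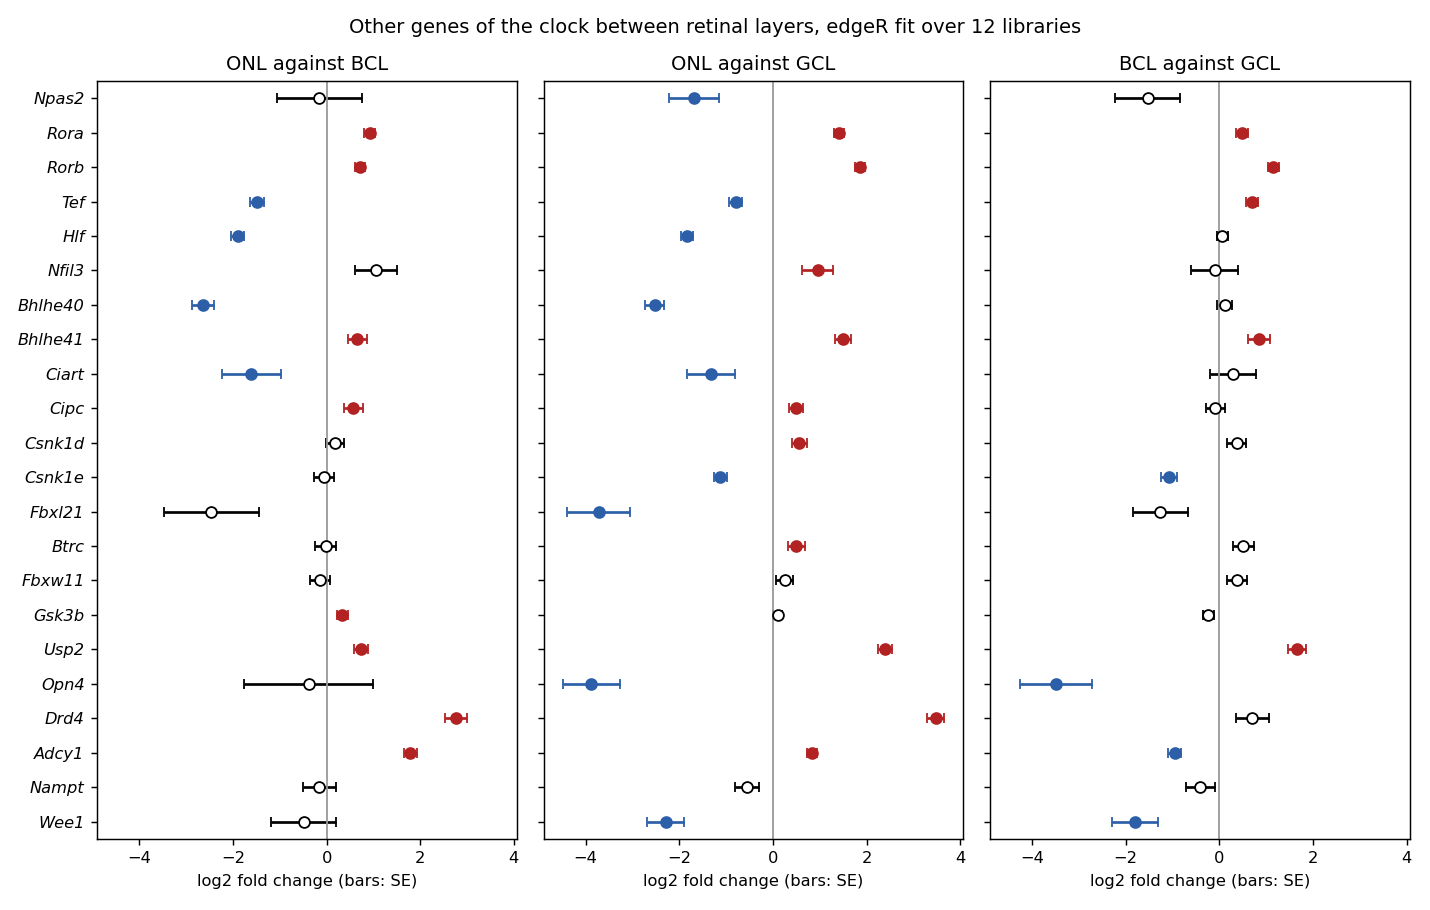
Log2 fold change of the 22 further clock genes tested in the 3 comparisons of layers, with its SE as a bar, from the edgeR fit over 12 libraries. Filled points passed the adjusted p of 0.05 (red, higher in the layer named first, blue, lower). Rora, Rorb and Usp2 are filled and red in all 3 panels, and Tef is blue in both panels with the ONL.

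Among repressors outside the Period and Cryptochrome families, Bhlhe40 and Bhlhe41 differed in order. Bhlhe40 had mean CPM of 19.3 ± 7.10 in the ONL, against 163 ± 19.9 in the BCL and 135 ± 15.1 in the GCL (log2 fold change -2.64 for ONL against BCL and -2.52 for ONL against GCL, both passed). Bhlhe41 was higher in the ONL than in the BCL (0.66, lost without section 4 at an adjusted p of 0.0943, with DESeq2 at 0.0670 and with library size alone at 0.249, where it was 0.31) and the GCL (1.50), and higher in the BCL than in the GCL (0.85). Ciart was lower in the ONL (-1.61 and -1.31) on 10 UMIs in all ONL libraries and passed in neither without section 3 (adjusted p of 0.272 and 0.0841) or section 4 (0.108 and 0.0611). The first was also lost with no low-count filter (0.0618) and the second with DESeq2 (0.0552), and without section 2 the first was -2.29. Cipc, an inhibitor of CLOCK, was higher in the ONL (0.57 and 0.49), the first of these lost without section 1 (adjusted p = 0.145), section 2 (0.0894) or section 4 (0.0651). Cipc also lost both calls with DESeq2 (adjusted p of 0.138 and 0.0689) and with library size alone (0.421 and 0.0703), and the first with DESeq2's size factors (0.0625) and with the layers compared fitted alone (0.0757). Of the genes for kinases and turnover of PER and CRY proteins, Usp2, a deubiquitinase, fell across the layers from 237 ± 27.1 CPM in the ONL to 181 ± 33.2 and 50.5 ± 8.12, with 0.74, 2.40 and 1.66, all passed. Fbxl21, an F-box protein gene, was higher in the GCL than in the ONL (-3.72, on 2 UMIs in all ONL libraries and 44 in the GCL, and -4.47 without section 4). The PER kinase gene Csnk1e was higher in the GCL than in both other layers (-1.12 and -1.07), and Csnk1d higher in the ONL than in the GCL (0.56, adjusted p = 0.0789 without section 2). Btrc was higher in the ONL than in the GCL (0.50, lost without section 1 at an adjusted p of 0.147 and without section 4 at 0.0896). That call was also lost with DESeq2 (0.116), library size alone (0.120) and no low-count filter (0.0985). Gsk3b passed for ONL against BCL (0.34), with mean CPM of 599 and 598, a log2 value of -0.000488 when scaled by library size alone and an adjusted p of 0.163 without section 2. With DESeq2's size factors, without mitochondrially encoded genes and with the layers compared fitted alone, its adjusted p was 0.0789, 0.0569 and 0.112.

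Of 6 input and output genes of the retinal clock, 4 passed in at least 1 comparison of layers, Nampt passed in none (adjusted p = 0.0518 for ONL against GCL) and Aanat was not tested. ONL against GCL alone was passed by 61.5% of all genes, and the share passing at least 1 comparison was not counted. Drd4, the dopamine receptor gene known to cycle in photoreceptors, lay at 231 ± 30.7 CPM in the ONL, against 42.2 ± 16.0 in the BCL and 22.6 ± 10.7 in the GCL (2.77 for ONL against BCL and 3.47 for ONL against GCL, both passed). Adcy1, an adenylyl cyclase, was higher in the ONL than in the BCL (1.79) and the GCL (0.83) and higher in the GCL than in the BCL (-0.96). Opn4, the melanopsin of light-sensitive ganglion cells, was higher in the GCL than in the ONL (-3.88) and the BCL (-3.50), but held 1 to 49 UMIs per GCL library. Without section 1 the first value was -2.97, and without section 4 the second was -4.53. Wee1, a cell cycle kinase gene under clock control, was higher in the GCL than in the ONL (-2.29) and the BCL (-1.80, and -2.57 without section 2). Npas2, the paralog of Clock, was higher in the GCL than in the ONL (-1.69), a call lost without section 1 (adjusted p = 0.0688). Of 10 immediate early genes, which respond to light and handling, 8 were tested. Between ONL and BCL 1 passed (higher in the BCL), between ONL and GCL 5 (2 higher in the ONL, against 3 in the GCL) and between BCL and GCL 2 (1 in each direction). All genes passed at 36.7%, 61.5% and 36.5% in these comparisons. With the section as a block, Nampt passed for ONL against GCL (-0.57, adjusted p = 0.0469) and 4 immediate early genes in place of 5 did, in a fit that called 61.1% of all genes. The gene lost was Dusp1 (adjusted p = 0.0635), named here after its value was seen.

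Levels of different genes were compared as CPM per kilobase of annotated exon length, shared bases included, so that Nr1d1, and less so Clock and Dbp, would be understated if reads over shared exons went uncounted. Nr1d1 led in every group, with 91.9 ± 2.21 CPM per kb (mean ± SD, n = 4) in the ONL, against 214 ± 27.4 in the BCL and 104 ± 26.5 in the GCL. It stood at 141 ± 38.7 in TH+ and 217 ± 39.1 in TH- cells (n = 5). Per2 came last in every group, from 1.84 ± 0.79 in the ONL to 13.0 ± 3.16 in the BCL. In the ONL the order after Nr1d1 was Per1 (29.0 ± 5.03), Cry1 (21.4 ± 1.18), Arntl (19.3 ± 3.24), Cry2 (17.7 ± 1.31), Clock (13.5 ± 0.78), Dbp (11.2 ± 4.59), Nr1d2 (6.48 ± 1.82), Per3 (6.33 ± 1.41) and Per2. Within it the mean ± SD ranges overlapped for 5 of 9 neighbouring pairs, namely Cry1 with Arntl, Arntl with Cry2, Clock with Dbp, Dbp with Nr1d2 and Nr1d2 with Per3. In the BCL, Dbp (57.0 ± 11.1) and Cry2 (48.2 ± 7.23) took the places after Nr1d1, overlapped each other and stood apart from Per1 (27.1 ± 5.68), and every neighbouring pair from Per1 down to Per2 overlapped. In the GCL, Cry2 (31.0 ± 4.63) and Dbp (27.3 ± 2.24) overlapped and stood apart from Per1 (17.2 ± 3.08), and Arntl (5.08 ± 0.88) lay next to last.

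**Figure D4:**
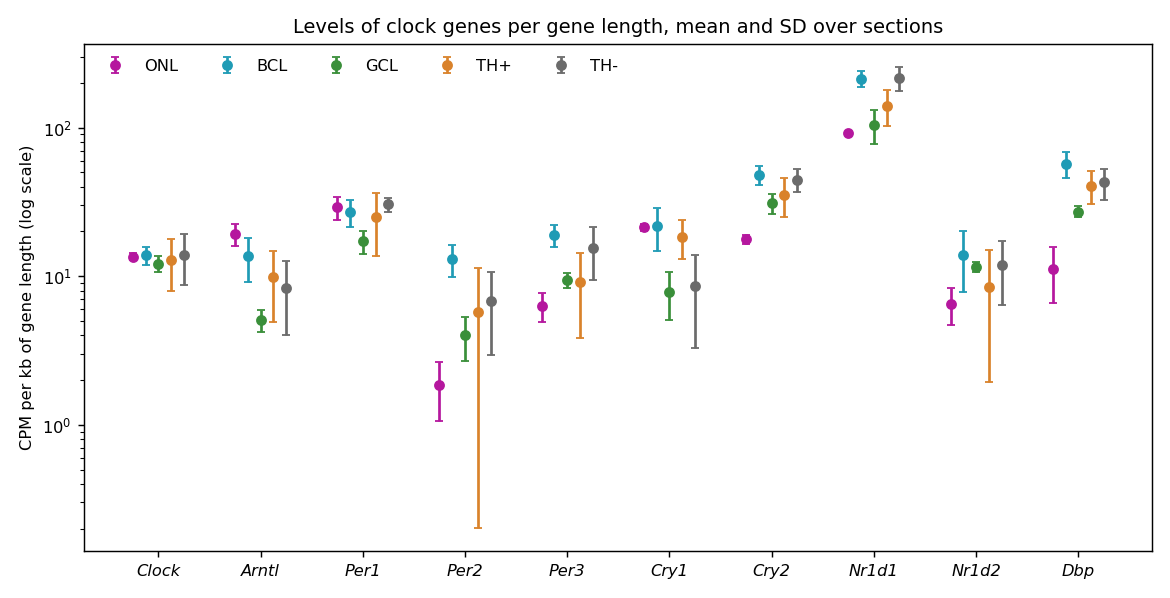
Level of each clock gene per kilobase of annotated exon length, in CPM per kb on a log axis, as the mean over sections with the SD as a bar, for the 3 layers (n = 4) and the TH+ and TH- amacrine cells (n = 5). Nr1d1 is the highest gene in every group, at 91.9 to 217, and Per2 is the lowest gene in every group, with a bar in TH+ cells that reaches almost to 0.

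For each clock gene with a mean of at least 20 UMIs per layer library, the genes most like it were taken as those with the highest Pearson correlation of log2 CPM over the 12 layer libraries. These libraries share their layer and section, so that the values describe a common order of layers and no more. Closest to Dbp were Mpp2 (0.989), Sh3pxd2b and Frmd4a, to Per3 P4ha2 (0.978), Tef and Syt15, and to Arntl Pofut1 (0.979), Celf2 and Mga. Tef, the second gene for Per3, is itself a PAR bZIP relative of Dbp. Closest to Nr1d1 were Lhx1 (0.968), Vsx1 and Tiprl, of which Lhx1 marks horizontal cells and Vsx1 a class of bipolar cells. The first genes for the others were St6galnac4 for Cry2 (0.965), Hic2 for Per1 (0.959), Trrap for Cry1 (0.958), Prdm10 for Clock (0.938) and Ccdc88a for Nr1d2 (0.937), and Per2 was below the minimum.

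In the amacrine cells no clock gene passed between TH+ and TH- libraries in the main test, which leaves out their pairing within sections. With the section as a block Nr1d1 passed (edgeR adjusted p = 0.00654), in a fit that called 2.46% of all genes. Of the 6021 genes tested 0.83% passed edgeR's quasi-likelihood test at an adjusted p of 0.05 and 8.85% had an unadjusted p below 0.05, which 2 of the 10 clock genes had (Nr1d1 and Cry1). DESeq2, also without the pairing, called none of the 10. The genes together reached 1398 ± 101 CPM in TH+ (mean ± SD, n = 5) and 1783 ± 188 CPM in TH- libraries. In TH+ sections 1 to 5 the sums were 1348, 1441, 1553, 1297 and 1352 CPM, and in the TH- cells of the same sections 1703, 2019, 1949, 1622 and 1621. The sum was thus lower in TH+ cells in 5 of 5 sections, and the sums of TH+ and TH- libraries did not overlap. Nr1d1 was the largest part of both sums, at means of 433 ± 119 CPM in TH+ and 666 ± 120 in TH- libraries. Sums without Nr1d1 and sums of other genes were not compared, so the separation is not shown for the set as a whole. The sums of all 10 rested on 41 to 126 and 230 to 349 UMIs per library, and single genes on few molecules in TH+ cells. CPM of TH+ and TH- overlapped for all 10 genes, while 2.28% of all genes did not overlap. The median log2 fold change of the 10 was -0.22, beside -0.05 for all genes tested.

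Nr1d1 was lower in TH+ cells in 5 of 5 sections, with 388, 377, 635, 432 and 329.8 CPM in TH+ sections 1 to 5 and 625, 694, 863, 579 and 571 in the TH- cells of the same sections. Only TH+ section 3 reached into the TH- range. The log2 fold change was -0.63 ± 0.19 (edgeR adjusted p = 0.122, 95% interval -1.01 to -0.25). With the section as a block, which compares TH+ and TH- cells within a section, it was -0.65 with an adjusted p of 0.00654, in a fit that called 2.46% of all genes. Without the low-count filter it was -0.78 with an adjusted p of 0.0323. Other measures moved with it. Müller glia markers made up 0.307% to 0.452% of TH+ and 0.425% to 0.685% of TH- libraries (0 of 7 passed), and 3 of 10 rod markers passed as higher in TH+ cells. Mitochondrially encoded genes took 6.68% to 9.32% of TH+ and 6.23% to 8.12% of TH- UMIs and were higher in TH+ cells in 5 of 5 sections. The part of these in the Nr1d1 difference was not tested. Thra, which overlaps Nr1d1, gave -0.32 ± 0.22 (edgeR adjusted p = 0.746). Cry1 pointed the other way, with 40.8, 68.6, 47.1, 86.5 and 66.0 CPM in TH+ cells (2, 6, 2, 4 and 2 UMIs). TH- cells had 19.7, 28.9, 59.5, 15.0 and 21.1 CPM (3, 5, 8, 3 and 3 UMIs). It was higher in TH+ cells in 4 of 5 sections, and its log2 fold change of 1.15 ± 0.50 did not pass (edgeR adjusted p = 0.454, 95% interval 0.16 to 2.13).

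Per3 lay at 20.4, 160.1, 70.6, 86.5 and 99.0 CPM in TH+ and 125, 237, 104, 99.8 and 176 in TH- cells. It was lower in TH+ cells in 5 of 5 sections, with overlapping ranges and a log2 fold change of -0.63 ± 0.36 (edgeR adjusted p = 0.637). Per2 had 2, 5, 3, 0 and 0 UMIs in TH+ sections 1 to 5, and 0 UMIs in sections 4 and 5 allow up to 64.9 and 99.0 CPM (3 UMIs of the library, counting error only). Nr1d2 had 0 UMIs in TH+ section 3, which allows up to 70.6 CPM. The TH- means of both genes, 40.0 and 64.1 CPM, lie below these limits, so that a lower level in those libraries was not detectable at this depth. The other log2 fold changes were -0.11 ± 0.28 for Clock, 0.22 ± 0.44 for Arntl, -0.35 ± 0.29 for Per1, -0.08 ± 0.57 for Per2, -0.28 ± 0.23 for Cry2, -0.58 ± 0.50 for Nr1d2 and -0.16 ± 0.32 for Dbp. Their edgeR adjusted p values ran from 0.801 to 0.990. For Dbp, for example, the 95% interval of the difference ran from -0.78 to 0.47, which leaves room for a change of either sign. None of the 16 further clock genes tested and none of the 4 immediate early genes tested passed.

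**Figure D5:**
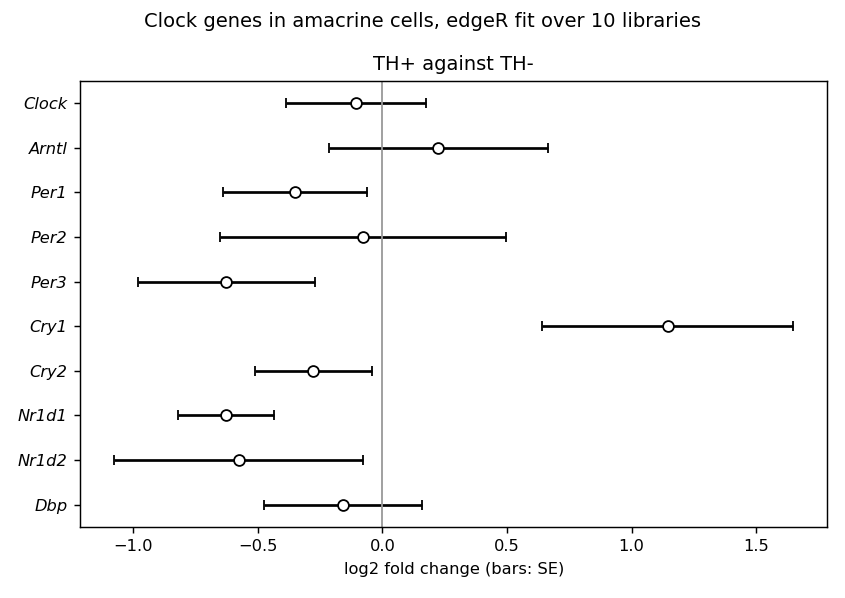
Log2 fold change of each clock gene in TH+ against TH- amacrine cells, with its SE as a bar, from the edgeR fit over 10 libraries without a block for the section. All 10 points are open because none passed the adjusted p of 0.05, and Nr1d1 at -0.63 and Cry1 at 1.15 lie farthest from 0 relative to their bars.

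The layers and the amacrine cells were sequenced in separate runs, and their levels are only set side by side. TH- amacrine cells had mean CPM of 666 ± 120.4 (SD, n = 5) for Nr1d1, 282 ± 49.8 for Cry2 and 128 ± 30.1 for Dbp, beside 657 ± 84.2, 305 ± 45.7 and 171 ± 33.2 in the BCL (n = 4). For Arntl the TH+ and TH- means were 74.6 ± 37.4 and 62.9 ± 32.5, beside 145 ± 24.4 in the ONL and 38.2 ± 6.58 in the GCL. The share of rod markers in the amacrine libraries lay between those of the ONL and the GCL, and its part in the Arntl level was not tested.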

How the data were processed

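Barcoded cDNA was made in situ from 3 layers of 4 retinal sections and from stained (TH+) and unstained (TH-) amacrine cells of 5 further sections. The authors extracted barcode and UMI with UMI-tools 1.1.1 and mapped the cDNA to GENCODE vM27 (assembly GRCm39) with STAR 2.7.9a, keeping reads with a single match. Genes were assigned with featureCounts of Subread and UMIs collapsed per gene, and SAMtools 1.9 is also named in the submitters' notes. The deposited count of a gene is thus its number of distinct UMIs, without normalization. The study's notes state the default settings of featureCounts, which count exons without regard to strand. The mixed cell culture of the same series was not analysed here, except for the gene lengths listed with its counts.

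Counts were tested with the quasi-likelihood test of edgeR 4.0.16 under R 4.3.3. TMM scaling was used, and genes needed at least 3 UMIs in enough libraries and 10 over all. The layers formed 1 fit of 12 libraries and the amacrine cells 1 fit of 10, and p values were adjusted after Benjamini-Hochberg over all genes tested. The SE was taken as the log2 fold change over the square root of its F value. The Wald test of DESeq2 1.42.0 was an alternative. Levels are CPM of the library total, summarised with python 3.11.15, numpy 2.4.6 and pandas 2.3.3 and drawn with matplotlib 3.10.9. Libraries held 30317 to 801105 UMIs, and edgeR's common coefficient of variation reached 9.17% (layers) and 16.0% (amacrine cells). The limit for 0 UMIs is 3 UMIs of the library, which covers counting error only. The steps were run on simulated counts without a section effect, for ONL against BCL and TH+ against TH- only, which does not test paired or small differences.

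The 10 genes, the further clock genes, the immediate early genes, the 12 marker lists and the tests were chosen with earlier results of these data known. All 10 were named, further clock genes were named where they passed a comparison, and immediate early genes were counted, with 1 named after its value was seen. Some genes of the second list are not reported here and were left out of its counts. Libraries with the same number come from 1 section, which pairs them. After removing group means, libraries of 1 section correlated at 0.0116 to 0.0493 in the layers (12 pairs) and at 0.0287 to 0.257 in the amacrine cells (5 pairs), and those of different sections at -0.0609 to 0.0431 and -0.117 to 0.0418. Alternatives were DESeq2, its size factors in edgeR, library size alone, no or edgeR's default low-count filter, a block for the section, leaving out mitochondrially encoded genes, fitting only the layers compared, and leaving out each section.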

Additional observations from a re-analysis of the deposited data

Results flagged for a closer look

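In each of the 50 combinations of a clock gene and a group, the library farthest from the rest was compared with the spread of its group. A value stood apart in 2 of them, and chance marks about 1 in 20. Clock reached 318 CPM in TH- section 2, where the other TH- sections lay at 149 to 169.7, on 55 UMIs. Nr1d1 was lowest in ONL section 2, at 273 CPM against 285 to 287 in the other ONL sections, a gap that is small beside the level and stands out through the narrow spread of those sections.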

How the results depend on the processing

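The number of clock genes past the threshold ranged from 6 to 8 for ONL against BCL (7 as reported, 8 with the section as a replicate block, 6 to 7 with a section left out), from 6 to 9 for ONL against GCL (9 as reported, 9 with the block, 7 with DESeq2, 6 to 9 with a section left out) and from 6 to 8 for BCL against GCL (8 as reported, 8 with the block, 7 with DESeq2, 6 without a low-count filter, 7 to 8 with a section left out). For TH+ against TH- it was 0 as reported and 0 with each section left out, but 1 (Nr1d1) without a low-count filter and 1 (Nr1d1) with the section as a replicate block. The block also brought Per1 past the threshold for ONL against BCL and changed no other call among the 10. Over all genes, TH+ against TH- gave 50 calls, 148 with the block and 29 to 73 with a section left out (29 without section 3, 31 without section 5). By mean CPM 8 clock genes were highest in the BCL, and 6 with TMM-scaled CPM.

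Of 476 recomputed values of single clock genes, 439 kept direction and side of the threshold, 22 lost the call, 3 gained one and 12 changed sign. None of these sign changes among the 10 genes concerned a difference that had passed. With library size alone, ONL against BCL became -0.051 for Clock and -0.035 for Cry1, and for Gsk3b, a further clock gene that had passed, -0.000488. ONL against GCL of Nr1d1 became 0.0087 with edgeR's default filter and 0.16 without section 3. BCL against GCL of Clock became -0.10 without a filter, -0.019 without mitochondrially encoded genes, -0.12 without section 3 and -0.0096 without section 4 (-0.12 to 0.054 with a section left out). That of Nr1d2 became -0.011 without a filter and -0.24 without section 1 (-0.24 to 0.21). TH+ against TH- of Clock became 0.19 without section 2 (-0.34 to 0.19) and that of Per2 0.11 without section 4 (-0.41 to 0.11). With DESeq2, Per1 for BCL against GCL (adjusted p = 0.0532), Per2 for ONL against GCL (0.0570) and Clock for ONL against GCL (0.162) lost their calls. The causes were not tested. Depth limits the TH+ values most, where 41 to 126 UMIs per library carry all 10 genes. With edgeR's default filter 6 of the 10 could be tested there.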
